A study of Mus musculus with 8 samples.

Results

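Galectins were examined as 5 genes, Lgals1, Lgals3, Lgals3bp, Lgals8 and Lgals9, in hippocampal RNA of mice that model mucopolysaccharidosis VII. They were taken as every probe set, a group of oligonucleotides read out as 1 value, whose only gene symbol was 1 of these 5. This gave 7 of the 22626 probe sets that are not controls and 5 of 12393 genes. The genes were chosen by their difference in log2 expression between mutant and normal mice, which was already known, so that difference is given for them as a description, without a test.

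Galectins are lectins that bind beta-galactoside sugars on glycoproteins and glycolipids. They are made in the cytosol and leave the cell without a signal peptide, and outside it they cross-link surface glycoproteins. Inside the cell, several of them gather on lysosomes and endosomes whose membrane has broken, where lumenal sugars become exposed, and mark these organelles for repair or autophagy. In the brain, galectin-3 is known as a product of activated microglia and macrophages, and galectin-1 of astrocytes, vessels and meninges.

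Mutant mice carried 2 copies of the mps allele of Gusb (mps/mps) and normal mice 1 copy (mps/+), so the normal mice were carriers and not wild type. Both groups shared the B6.C-H2-Kbm1/ByBir background, and the mutation is present in every cell. Per the labels, mutants 1 to 4 were a female of 38.3 weeks, 2 males of 25.6 weeks and a female of 19.6 weeks. Normals 1 to 4 were a female of 38.3 weeks, a male of 25.6 weeks, a male of 19.6 weeks and a female of 14.6 weeks. Each of the 8 arrays held the right hippocampus of 1 animal. Levels are log2 expression values, and a difference is mutant minus normal on that scale with the moderated standard error (SE) of a limma fit over all probe sets.

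Gusb, the gene of beta-glucuronidase, was measured by 2 probe sets. One had values of 4.51, 4.71, 4.36 and 4.62 in mutants 1 to 4, against 6.56, 5.40, 5.83 and 6.02 in normals 1 to 4, which did not overlap (two-sided exact permutation p = 0.0286, the smallest that 4 against 4 arrays allow). The other averaged 5.93 ± 0.48 in mutants and 5.77 ± 0.53 in normals (SD, n = 4 each), with a two-sided p of 0.657 in the exact permutation test. RNA of normal 1 stood apart, where the 3′ probe sets of the actin and Gapdh controls exceeded the 5′ ones by 3.58 on average, against 0.22 to 0.75 on the other 7 arrays. Tissue content differed between and within the groups. None of 7 measured striatal marker genes had a higher mean in mutants, and 6 were lower at an unadjusted p under 0.05 in limma (against 2.48% of all genes), 0 of them past the threshold over all genes, with a median difference of -2.27. Their mean level ran between 6.66 and 7.69 on mutant arrays and between 7.47 and 10.4 on normal arrays, highest in normals 1 and 3, so striatal markers moved with genotype, and their part in the galectin differences was not tested. Without normals 1 and 3 the mutant minus normal difference was 2.64 for Lgals3, 2.02 for Lgals1, 0.99 for Lgals3bp and 0.87 for Lgals9. That comparison kept normal 4, whose striatal mean of 9.25 also lay above every mutant array. Normal 4 was the lowest normal for Lgals1, Lgals3 and Lgals9. For 9 thalamic and habenular genes the range was 7.32 to 10.1 on mutant arrays and 7.79 to 9.80 on normal arrays, and for 8 hippocampal field genes it was 6.34 to 7.91 on mutant arrays and 6.54 to 7.12 on normal arrays.

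Lgals3, Lgals1 and Lgals3bp were higher in every mutant than in every normal mouse, and Lgals9 was higher by a smaller amount with overlapping groups. Lgals8 overlapped widely on both of its probe sets. The mean differences were 2.40 for Lgals3, 1.60 for Lgals1, 1.13 for Lgals3bp, 0.65 for Lgals9 and 0.20 for Lgals8 on the probe set of higher mean. Of the 7 probe sets, 4 had groups that did not overlap with the mutants higher, a pattern held by 1.81% of all probe sets. In limma 0 of the 7 passed an adjusted p of 0.05 over all probe sets, which 0.0796% of probe sets did with the mutants higher. At an unadjusted p under 0.05, 5 of the 7 passed, against 3.14% of all probe sets that did so with the mutants higher. These counts come from the contrast on which the genes were chosen. The median difference over all probe sets was -0.012.

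**Figure D1:**
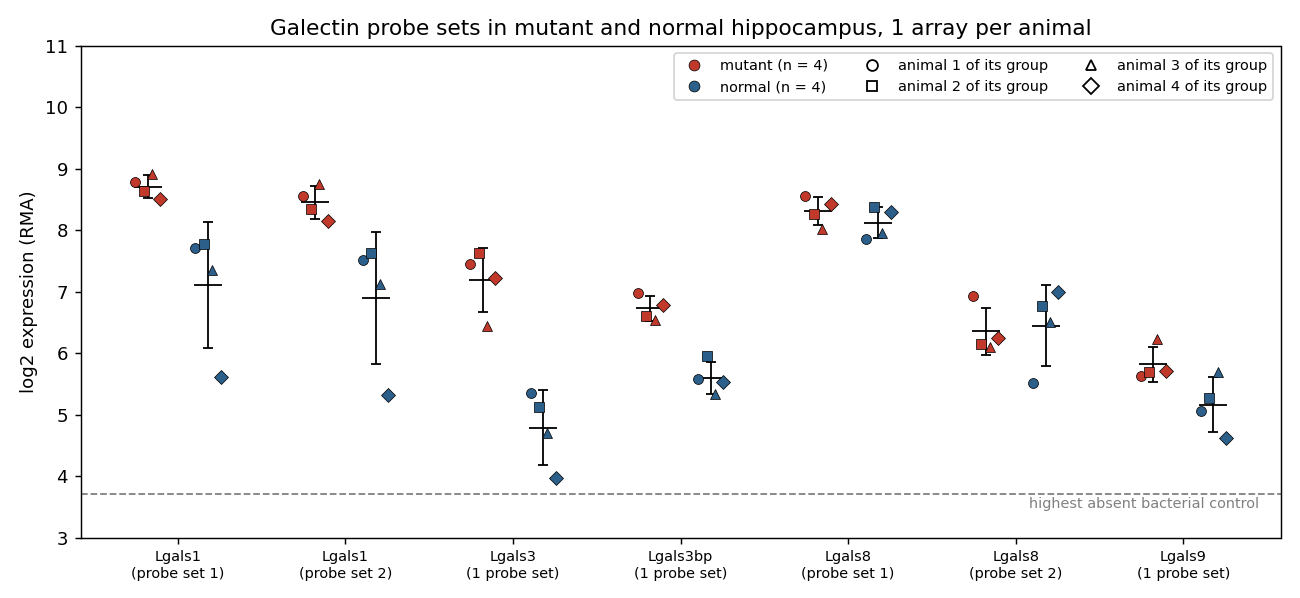
Log2 expression (vertical axis) of the 7 galectin probe sets in 4 mutant (red, left of each pair) and 4 normal mice (blue, right), 1 point per array, with black bars for the mean and SD of each group. Mutants lie above all normals for both Lgals1 probe sets, Lgals3 and Lgals3bp, while the groups overlap for Lgals9 and for both Lgals8 probe sets, and the dashed line is the highest absent bacterial control, 3.72.

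Lgals3 encodes galectin-3, the galectin with a long N-terminal tail through which it forms oligomers, also called the macrophage antigen Mac-2. Its values were 7.46, 7.63, 6.45 and 7.23 in mutants 1 to 4, against 5.36, 5.12, 4.71 and 3.98 in normals 1 to 4. Mutant 3 was lowest among the mutants and still 1.09 above normal 1, the highest normal. The mean was 7.19 ± 0.52 in mutants and 4.79 ± 0.61 in normals (SD, n = 4 each), a difference of 2.40 ± 0.35 (SE) or 5.28-fold. This was the 9th largest difference among all 22626 probe sets. The lowest normal value, 3.98, lay close to 3.72, the highest of 27 control probe sets for bacterial RNA that these samples should lack.

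Lgals1 encodes galectin-1, a small galectin with 1 sugar-binding domain that pairs with itself. On its probe set of higher mean, Lgals1 had 8.79, 8.64, 8.92 and 8.50 in mutants 1 to 4, against 7.72, 7.79, 7.35 and 5.61 in normals 1 to 4. The mutants lay within 0.42 of each other, whereas the normals spanned 2.18, with normal 4 far below the rest. The mean was 8.71 ± 0.18 in mutants and 7.12 ± 1.02 in normals (SD, n = 4 each), a difference of 1.60 ± 0.45 (SE) or 3.02-fold. The second Lgals1 probe set gave 1.55 ± 0.47 (SE), and the pair followed each other closely over the 8 arrays (Pearson's r = 0.998, a description). Both Lgals1 probe sets are of a type whose oligonucleotides can match several transcripts of the gene, and the reference annotation also lists a pseudogene of Lgals1. Without normal 4 the Lgals1 difference was 1.09, and without normal 1 it was 1.80.

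Lgals3bp is not itself a galectin. It encodes a secreted glycoprotein with a scavenger receptor cysteine-rich domain that binds galectin-3, and its transcription is known to respond to interferon. Its values were 6.98, 6.61, 6.54 and 6.79 in mutants 1 to 4, against 5.58, 5.95, 5.34 and 5.53 in normals 1 to 4. Both groups were narrow and were separated by 0.59. The mean was 6.73 ± 0.20 in mutants and 5.60 ± 0.25 in normals (SD, n = 4 each), a difference of 1.13 ± 0.16 (SE) or 2.19-fold.

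Lgals9 encodes galectin-9, which has 2 sugar-binding domains joined by a linker and is a ligand of the T cell and myeloid receptor TIM-3. Its values were 5.63, 5.69, 6.24 and 5.71 in mutants 1 to 4, against 5.07, 5.27, 5.70 and 4.63 in normals 1 to 4. The groups overlapped through normal 3, which lay above mutants 1 and 2. The mean was 5.82 ± 0.28 in mutants and 5.17 ± 0.44 in normals (SD, n = 4 each), a difference of 0.65 ± 0.24 (SE) or 1.57-fold. In the fit with array weights the difference was 0.37.

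Lgals8 encodes galectin-8, also with 2 sugar-binding domains, which in human cells brings an autophagy receptor to damaged vesicles. Its probe set of higher mean had 8.56, 8.27, 8.03 and 8.43 in mutants 1 to 4, against 7.86, 8.37, 7.95 and 8.30 in normals 1 to 4. Mutants averaged 8.32 ± 0.23 and normals 8.12 ± 0.25 (SD, n = 4 each), a difference of 0.20 ± 0.17 (SE). The other Lgals8 probe set went the other way, with 6.93, 6.15, 6.11 and 6.25 in mutants 1 to 4, against 5.51, 6.78, 6.52 and 7.00 in normals 1 to 4, a difference of -0.09 ± 0.33 (SE). On this probe set the highest mutant was mutant 1 and the lowest array was normal 1, the array with the raised 3′ over 5′ control value of 3.58. The Lgals8 probe sets correlated with each other at Pearson's r = 0.669 over the 8 arrays. Without normals 1 and 3 the difference on the probe set of higher mean was -0.013.

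None of the 5 genes lies on chromosome 5, which carries Gusb. In GRCm38.p6, Lgals1 is on chromosome 15 (78926725 to 78930465), Lgals3 on chromosome 14 (47373860 to 47386167) and Lgals8 on chromosome 13 (12439402 to 12464977). Lgals9 (78962979 to 78984924) and Lgals3bp (118392747 to 118401959) are both on chromosome 11, far apart. The 250 bases before the gene start are shown for 3 genes that were higher in mutants and are in the RefSeq promoter table of that build, 5′ to 3′ on the gene's strand. They are Lgals3 (chr14:47373610-47373859, plus strand), Lgals3bp (chr11:118401960-118402209, minus strand) and Lgals9 (chr11:78984925-78985174, minus strand). Capitals mark matches, on either strand, to 5 motifs: CACGTG, the E-box; AANNGAAA, the core bound by interferon regulatory factors; GAGGAA, the core bound by the myeloid factor PU.1; TGANTCA, the AP-1 site; and GGGCGG, the GC box.
Lgals3: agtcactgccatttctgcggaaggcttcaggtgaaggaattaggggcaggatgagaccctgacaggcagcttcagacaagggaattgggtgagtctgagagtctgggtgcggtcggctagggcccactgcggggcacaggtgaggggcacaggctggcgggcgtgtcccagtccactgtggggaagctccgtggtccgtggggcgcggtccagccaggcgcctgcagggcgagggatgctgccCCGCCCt
Lgals3bp: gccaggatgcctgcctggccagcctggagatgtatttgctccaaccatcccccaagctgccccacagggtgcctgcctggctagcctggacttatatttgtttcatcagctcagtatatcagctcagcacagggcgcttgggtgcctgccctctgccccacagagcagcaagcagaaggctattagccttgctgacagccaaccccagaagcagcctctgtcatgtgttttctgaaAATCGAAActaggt
Lgals9: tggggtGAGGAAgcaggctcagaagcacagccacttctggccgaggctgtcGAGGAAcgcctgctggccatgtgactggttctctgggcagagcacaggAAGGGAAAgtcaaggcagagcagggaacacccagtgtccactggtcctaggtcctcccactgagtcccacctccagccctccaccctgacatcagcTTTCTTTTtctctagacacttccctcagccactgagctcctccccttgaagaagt
Lgals3 had 1 match, to the GC box, 7 to 2 bases before the start. Lgals3bp had 1 match, to AANNGAAA, 14 to 7 bases before the start. Lgals9 had 2 matches to AANNGAAA and 2 to GAGGAA, and none of the marked matches overlap. The Lgals8 window, which is not shown, held 0 matches to the 5 motifs. Among 32851 windows of the same length, 21.3% held AANNGAAA, 23.3% GAGGAA and 32.7% GGGCGG, so each of these matches is common. The E-box (6.02% of windows) and the AP-1 site (6.75%) matched in none of the 3, and these matches describe letters only.

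The galectins that were on the array but not among the 5 genes had groups that overlapped. Lgals2, Lgals4, Lgals7, Lgals12 and the galectin-related gene Lgalsl had 8 probe sets. In limma 0 of the 8 passed over all probe sets, against 0.0796% of all probe sets with the mutants higher. At an unadjusted p under 0.05, 0 did, against 3.14% with the mutants higher. At such shares, 0 of 8 does not set these genes apart from all probe sets. The 5 genes were chosen by this contrast, so their distance from these galectins is part of the choice. Differences of the 8 ran from -0.081 for Lgals12 to 0.050 for Lgals7. Their groups overlapped on all 8, and 1.81% of all probe sets had no overlap with the mutants higher. Lgalsl, a gene whose product lacks sugar binding in the form studied so far, averaged 9.32 ± 0.23 in mutants and 9.35 ± 0.34 in normals (SD, n = 4 each). Lgals4, known from the gut epithelium, averaged 5.01 ± 0.18 in mutants and 4.99 ± 0.26 in normals (SD, n = 4 each). One Lgals12 probe set stayed below the highest absent control on every array. The Lgals2 probe set of lower mean exceeded that control on 2 arrays, and Lgals7 lay only between 4.17 and 4.30.

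**Figure D2:**
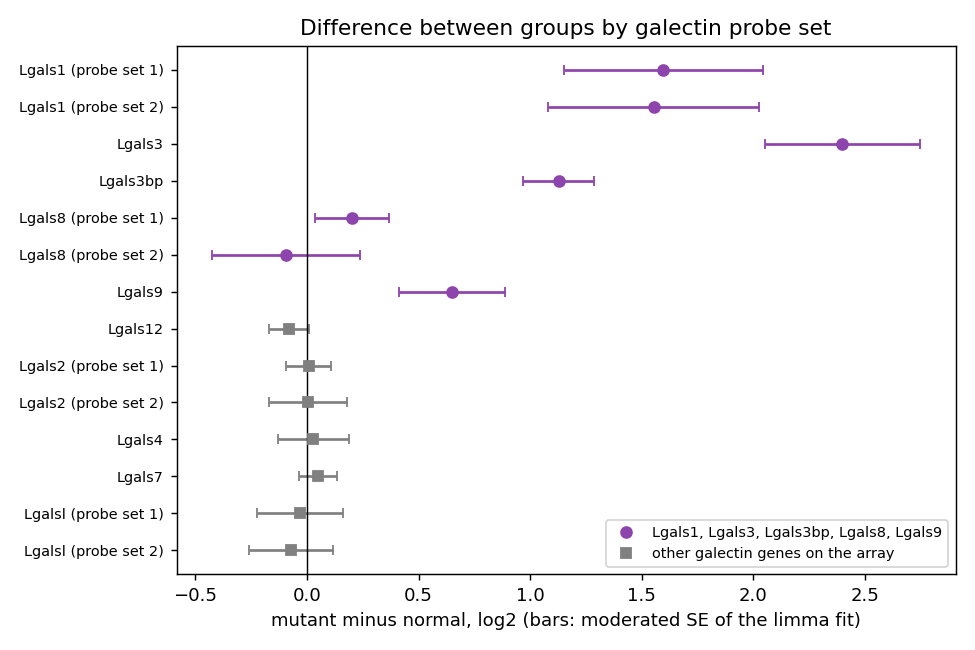
Mutant minus normal difference on the log2 scale (horizontal axis) with the moderated SE, for the 7 probe sets of the 5 galectin genes (purple circles) and 7 probe sets of other galectin genes that exceeded the absent controls on at least 1 array (grey squares). Lgals3 lies furthest to the right at 2.40, and the grey squares lie between -0.081 and 0.050.

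Each genotype had 2 females and 2 males, but the ages of the groups were not balanced, and measures that played no part in the choice of genes were tested across all probe sets. Among normals of 14.6, 19.6, 25.6 and 38.3 weeks, Lgals3 had 3.98, 4.71, 5.12 and 5.36, in the order of age. Lgals1 had 5.61, 7.35, 7.79 and 7.72 at the same ages, so the youngest normal was lowest by 1.74. Lgals9 was also lowest in the youngest normal, at 4.63, whereas Lgals3bp was lowest in the normal of 19.6 weeks. With genotype as a term, 0 of 7 probe sets passed for age in limma (lowest adjusted p = 0.718), as did 0% of all probe sets, and 0 did at an unadjusted p under 0.05, against 6.45% of all probe sets. The fitted slopes were 0.50 ± 0.24 per 10 weeks for Lgals1 and 0.40 ± 0.18 for Lgals3 (log2, SE), and the differences between mutants and normals with age as a term were 1.46 for Lgals1 and 2.29 for Lgals3.

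Differences between animals of the same age and sex are given as a description. For Lgals1, Lgals3 and Lgals3bp their sign was fixed, since every mutant exceeded every normal. In the females of 38.3 weeks, mutant 1 exceeded normal 1 by 2.10 for Lgals3, 1.07 for Lgals1, 1.40 for Lgals3bp and 0.56 for Lgals9. In the males of 25.6 weeks, mutants 2 and 3 exceeded normal 2 by 2.51 and 1.33 for Lgals3 and by 0.85 and 1.14 for Lgals1. For Lgals3bp they exceeded it by 0.66 and 0.59, and for Lgals9 by 0.42 and 0.97. Lgals8 differed in sign between these pairs, at 0.70 in the females and -0.10 and -0.35 in the males on its probe set of higher mean. All values of the female pair rest on normal 1, the array with the raised 3′ over 5′ control value of 3.58.

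**Figure D3:**
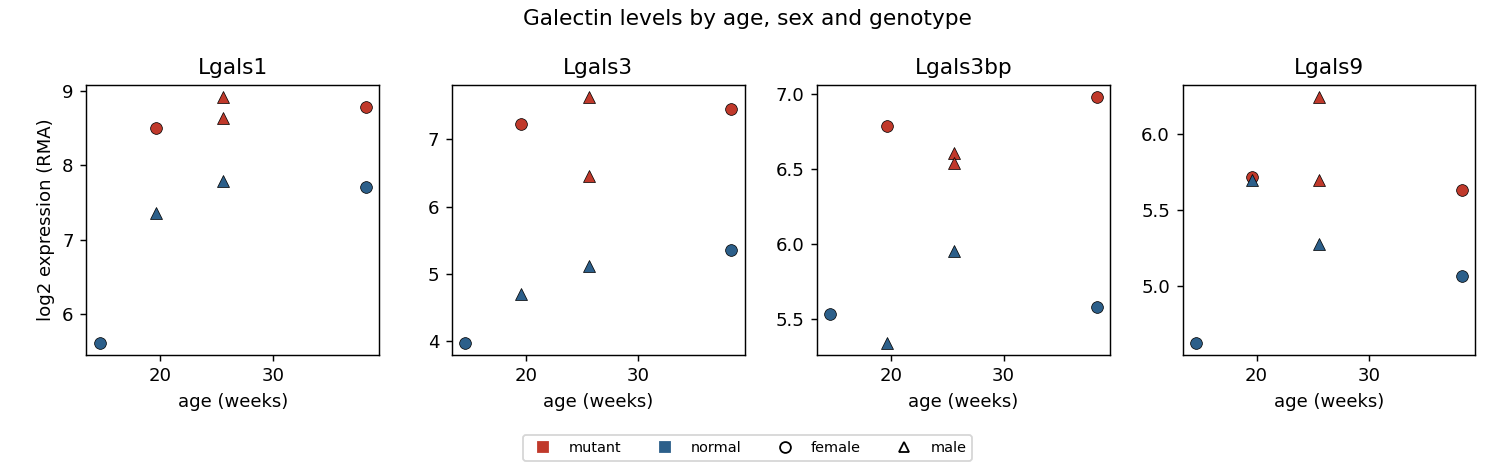
Log2 expression (vertical axes, each panel with its own range) against age in weeks for Lgals1, Lgals3, Lgals3bp and Lgals9 on the probe set of highest mean, mutants in red, normals in blue, circles for females and triangles for males. The youngest normal, at 14.6 weeks, is the lowest array for Lgals1 (5.61), Lgals3 (3.98) and Lgals9 (4.63).

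Males and females did not separate for any of the 5 genes past the threshold. With genotype as a term, 0 of 7 probe sets passed over all probe sets in limma (each adjusted p = 1.00), against 0.0354% of all probe sets, and 1 passed at an unadjusted p under 0.05, against 2.45% of all probe sets. That one was Lgals9, which was higher in males by 0.47 ± 0.19 (log2, SE, unadjusted p = 0.0399 in limma), with means of 5.73 in males and 5.26 in females. The difference between mutants and normals was 2.12 in males and 2.68 in females for Lgals3, and 1.21 in males and 1.98 in females for Lgals1. The female normals included normal 4, of 14.6 weeks, an age that no mutant had, so sex and age are mixed here. In the females of 38.3 weeks alone the difference was 2.10 for Lgals3 and 1.07 for Lgals1. The interaction of genotype and sex passed for 0 of 7 probe sets in limma (lowest adjusted p = 0.670), as for 0% of all probe sets, and for 0 at an unadjusted p under 0.05, against 10.5% of all probe sets. Each cell of that test held 2 animals.

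Mean levels of 2 microglial marker lists were higher in every mutant than in every normal, as were Lgals3, Lgals1 and Lgals3bp. This was not particular to microglia. The means of the general astrocyte, reactive astrocyte and meningeal lists separated in the same direction, and the oligodendrocyte mean in the opposite one. Of 14 measured markers of activated microglia, 13 had higher means in mutants and 5 passed over all genes, against 52.5% and 0.0968% of all genes, and the mean level of the list spanned 7.57 to 7.77 on mutant arrays and 5.98 to 6.35 on normal arrays. Mutant 3 and normal 4 were lowest of their groups both for this mean and for Lgals3. Mutant 1 was highest for this mean, but mutant 2 was highest for Lgals3. Of 19 general microglia and macrophage markers, 14 had higher means and 3 passed, with list means of 7.87 to 8.11 in mutants and 6.81 to 7.38 in normals, and 18 of the 19 exceeded the absent controls on every array. For this general list mean, mutant 2 was lowest of the mutants (7.87), though it was highest for Lgals3 (7.63). Normal 4 was lowest of the normals for both. In RNA of whole tissue, more cells of a type and more RNA per cell cannot be told apart. Of 12 reactive astrocyte markers, 10 had higher means and 1 passed, with list means of 5.91 to 6.22 in mutants and 5.09 to 5.89 in normals. Of 12 general astrocyte markers, 11 had higher means and 1 passed, with list means of 9.36 to 9.55 in mutants and 8.84 to 9.21 in normals. Oligodendrocyte markers went the other way. None of 12 had a higher mean in mutants, 0 passed and 9 were lower at an unadjusted p under 0.05 in limma (against 2.48% of all genes), with list means of 8.34 to 8.98 in mutants and 9.25 to 9.87 in normals. Of 11 neuron markers, 3 had higher means and 0 passed (1 lower at an unadjusted p under 0.05 in limma), with list means of 9.30 to 9.71 in mutants and 9.25 to 9.97 in normals. The part of these cells in the galectin differences was not tested.

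Markers of the meninges, choroid plexus and vessels also had higher means in mutants, with groups overlapping on the choroid plexus and endothelial list means. Over all genes, 52.5% had higher means in mutants and 4.05% were higher at an unadjusted p under 0.05. All 15 meningeal fibroblast markers had higher means in mutants and 0 passed in limma (9 at an unadjusted p under 0.05), with list means of 6.22 to 7.08 in mutants and 5.30 to 6.18 in normals, and Col1a1 did not exceed the absent controls on any array. Mutants 3 and 1 were highest and normal 4 lowest, as for Lgals1. The lowest mutant was mutant 2 for this mean (6.22) but mutant 4 for Lgals1 (8.50). All 11 measured choroid plexus markers had higher means and 0 passed (6 at an unadjusted p under 0.05), with list means of 7.95 on the array of mutant 1, 7.03 on that of mutant 3, 5.23 on that of mutant 2 and 5.28 on that of mutant 4, against 4.46 to 5.29 on normal arrays. Without mutants 1 and 3 the Lgals1 difference was 1.46 and the Lgals3 difference 2.64. The part of choroid plexus, meninges or vessels in the galectin differences was not tested. Of 12 endothelial markers, all had higher means and 0 passed (3 at an unadjusted p under 0.05), with list means of 6.64 to 6.96 in mutants and 6.08 to 6.77 in normals. Of 11 lymphocyte markers, 3 had higher means, 0 passed (1 higher and 2 lower at an unadjusted p under 0.05) and 3 (Cd3g, Cd79b and Ms4a1) did not exceed the absent controls on any array.

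**Figure D4:**
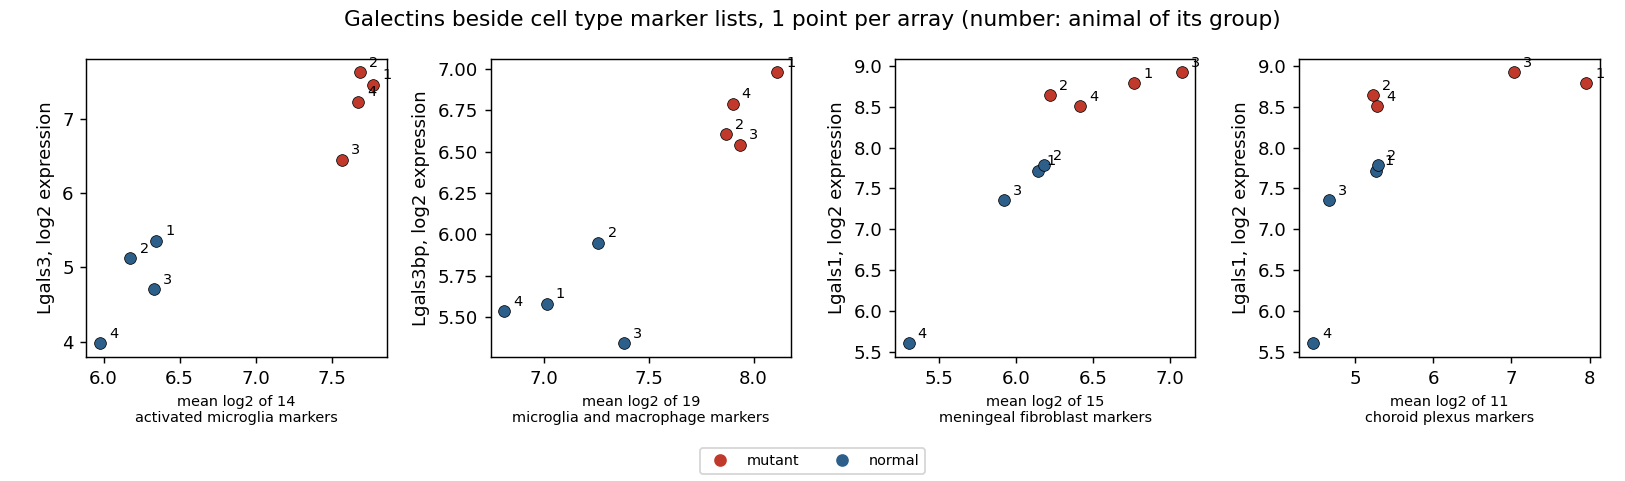
Log2 expression of Lgals3, Lgals3bp and Lgals1 (vertical axes) against the mean log2 value of a cell type marker list (horizontal axes), 1 point per array, mutants in red and normals in blue, with the animal's number in its group beside each point. For Lgals3 and activated microglia markers the groups are separate on both axes. Choroid plexus means are highest in mutants 1 and 3 (7.95 and 7.03), and Lgals1 is 8.50 to 8.92 in the 4 mutants. The part of these tissues and cells in the galectin differences was not tested.

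Among proteins known to bind galectins, 15 of 18 genes had higher means in mutants, against 52.5% of all genes, and the median difference was 0.28 against 0.011 over all genes. In limma 0 of the 18 passed over all genes, which 0.105% of genes did in either direction, and 6 were higher at an unadjusted p under 0.05, against 4.05% of all genes. Trem2, a microglial receptor reported to bind galectin-3, had the smallest p, with 7.67 ± 0.41 in mutants and 6.15 ± 0.40 in normals (SD, n = 4 each, difference 1.52 ± 0.25 SE, limma adjusted p = 0.121). Lamp2, a lysosomal membrane glycoprotein that carries galectin ligands, averaged 9.18 ± 0.13 in mutants and 8.48 ± 0.39 in normals (SD, n = 4 each, difference 0.70, limma adjusted p = 0.446). Ptprc, the leukocyte surface phosphatase bound by galectin-1, differed by 0.68 and the endocytic receptor gene Lrp1 by 0.55 (limma adjusted p = 0.471 and 0.529). Trem2, Ptprc and Itgam are also in the microglia marker list, and of these Itgam had a lower mean in mutants (difference -0.37). Cd44 (0.94) is also in the reactive astrocyte list.

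Enzymes that build the sugars galectins bind had differences centred near 0. Of 18 measured genes of N-glycan branching and extension, 11 had higher means, against 52.5% of all genes, and the median difference was 0.040. In limma 0 passed, against 0.105% of all genes. At an unadjusted p under 0.05 in limma 1 was higher, near the share of 4.05% of all genes. That gene was B4galt1, a galactosyltransferase that makes the N-acetyllactosamine unit, with 6.61 ± 0.32 in mutants and 5.95 ± 0.24 in normals (SD, n = 4 each, limma adjusted p = 0.502). St3gal6, a sialyltransferase, differed by 0.35, and B3gnt2, which extends lactosamine chains, by -0.79, with 7.91 ± 0.20 in mutants and 8.71 ± 0.88 in normals (SD, n = 4 each, limma adjusted p = 0.793). B4galt5 differed by -0.25, with means of 3.31 in mutants and 3.56 in normals, below the highest absent control.

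Genes of the response to broken lysosomes, the repair and autophagy factors that act beside galectins, also had differences centred near 0. Of 24 measured genes, 13 had higher means, against 52.5% of all genes, and the median difference was 0.0054. In limma 0 passed, against 0.105% of all genes. At an unadjusted p under 0.05 in limma 0 did, against 4.05% of all genes higher and 2.48% lower. These counts do not set the list apart from all genes. The members of smallest p were Chmp3, an ESCRT-III membrane repair subunit (-0.34), Gabarap, an autophagosome protein (0.63), the kinase gene Map3k7 (0.24) and the calcium-binding ESCRT recruiter Pdcd6 (-0.21). Among scavenger receptor cysteine-rich genes, the family of the Lgals3bp domain, 4 of 10 had higher means and 0 passed in limma. At an unadjusted p under 0.05 in limma 1 was lower, against 2.48% of all genes. That gene was the macrophage receptor gene Cd163, with 2.98 ± 0.24 in mutants and 4.06 ± 0.49 in normals (SD, n = 4 each, limma adjusted p = 0.313), and in mutants it did not exceed the absent controls. Msr1 differed by -0.19, Dmbt1 by -0.15 and Cd5l by 0.18, and of these Dmbt1 and Cd5l did not exceed the absent controls on any array.

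The genes most like each galectin were found by Pearson's r over the 8 arrays. The search covered 10753 genes that exceeded the absent controls on at least 1 array. The arrays hold both genotypes, so genes that differ between the groups in the same direction correlate for that reason alone, and no p is given. Lgals3 was most like Ms4a7 (r = 0.990) and Ms4a6b (0.988), membrane proteins of macrophages, and Ctla2b (0.986). Ms4a7 had 6.67, 6.95, 5.90 and 6.46 in mutants 1 to 4, against 4.82, 4.74, 4.64 and 4.25 in normals 1 to 4. Mutant 3 and normal 4 were lowest of their groups as for Lgals3, but Ms4a7 was picked for its likeness on these arrays. Lgals1 was most like Ptgds (0.983), the prostaglandin D synthase gene abundant in the meninges and choroid plexus. Next came Hsd11b1 (0.980), a glucocorticoid-activating enzyme gene, and the transcription factor gene Foxd1 (0.978). Foxd1 lay below the highest absent control in normals 3 and 4 (3.67 and 3.24) and reached at most 4.23. Ptgds had 12.74, 12.27, 13.01 and 12.45 in mutants 1 to 4, against 11.93, 12.05, 11.70 and 10.15 in normals 1 to 4, and it is a member of the meningeal marker list.

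Lgals3bp was most like Il10rb (0.977), which encodes a chain of the interleukin-10 receptor, Myo1f (0.965), a myosin gene of immune cells, and Uap1l1 (0.964). Il10rb had 7.08, 7.02, 6.74 and 7.01 in mutants 1 to 4, against 6.27, 6.29, 5.94 and 6.13 in normals 1 to 4. Lgals9 was most like Map1s (0.983), a microtubule-associated protein gene, and less like the next genes, C77080 and Mustn1 (0.926 each). Lgals8 was most like Slc7a10 (0.983), a neutral amino acid transporter gene, the chemokine gene Ccl2 (0.981) and the vitamin transporter gene Slc5a6 (0.978). Among the 5 genes, r was 0.928 for Lgals3 with Lgals3bp, 0.875 for Lgals1 with Lgals3 and 0.837 for Lgals1 with Lgals9, and it was 0.154 for Lgals1 with Lgals8 and -0.052 for Lgals8 with Lgals9.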

How the data were processed

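Hippocampal RNA of 4 mutant and 4 normal mice was measured on 1 Affymetrix array per animal. The deposited table holds 1 log2 value per probe set and array, which the authors produced with RMA (GCOS 1.4 is listed too), per the submitters' processing notes. The steps from the scanned images to these values were not repeated, and the genome build is not given in the sources used here. Of 22690 probe sets, 64 were controls, 20380 carried 1 gene symbol, 691 several and 1555 none, and 99.9% of those with 1 symbol matched the GRCm38.p6 gene table. Array medians were 6.09 to 6.17. The number of arrays limits the precision.

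Probe sets, and genes by their probe set of highest mean, were fitted with lmFit and eBayes of limma 3.58.1 under R 4.3.3 (Benjamini-Hochberg over all features, threshold 0.05). Sex, age and the interaction of genotype and sex were fitted the same way. Gusb was tested by exact permutation over 70 arrangements. The absent controls were 27 bacterial probe sets with a highest value of 3.72. The galectins, the lists and the rule for named genes (all galectins on the array, Gusb, the 4 genes of smallest p in each of 4 lists and the 3 genes most like each galectin) were chosen with earlier results of these data known. The alternatives were other probe set rules, a filter on dim features, other scalings and fits, sex or age as covariates, animals of 1 age as a block, and leaving out animals. The steps were tested on simulated data. Figures were drawn with Python 3.11.15. Replicate numbers follow the order of deposit and pair no animals.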

Additional observations from a re-analysis of the deposited data

Results flagged for a closer look

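In 62 groups of 4 arrays examined (the galectin probe sets and the list genes named above, in each genotype), 3 held 1 array far from the other 3, and chance gives about 1 in 20 such groups. Lgals9 was at 6.24 in mutant 3, against 5.63 to 5.71 in the other mutants. A probe set of Lgalsl was at 8.48 in mutant 2, against 7.97 to 8.05 in the other mutants. Msr1 was at 4.56 in normal 4, against 4.89 to 4.94 in the other normals.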

How the results depend on the processing

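Over the alternatives that could be computed, the differences stayed positive, at 2.13 to 2.65 for Lgals3, 1.09 to 2.02 for Lgals1, 0.99 to 1.25 for Lgals3bp and 0.37 to 0.87 for Lgals9, also after quantile normalization or median centring. Lgals1 and Lgals9 gave no value when probe sets of the _a_at, _s_at and _x_at types were left out, nor Lgals9 without the 40% of genes with the lowest mean. Lgals8 was 0.054 with the mean of its probe sets and turned to -0.013 without normals 1 and 3. Leaving out 1 animal gave 2.13 to 2.65 for Lgals3, 1.09 to 1.82 for Lgals1, 1.04 to 1.25 for Lgals3bp, 0.11 to 0.30 for Lgals8 and 0.47 to 0.83 for Lgals9. Of all genes, 12 were higher and 1 lower in mutants at an adjusted p under 0.05 in limma, the threshold for the counts that follow. The higher count was 7 without dim genes, 32 with array weights, 5 without normals 1 and 3, 6 without mutants 1 and 3, and 5 to 18 without 1 animal (6 without mutants 1 or 2, 5 without mutant 4, 7 without normal 3). The lower count was 3 with the mean of probe sets, 2 after quantile normalization or median centring, 4 with array weights, and 0 to 22 without 1 animal (22 without normal 2). It was 0 without normals 1 and 3, mutants 1 and 3, mutants 2 or 4 or normals 3 or 4 (169 to 306 in limma at an unadjusted p under 0.05). The cause was not tested. In the 4 gene lists and the other galectins, 0 genes passed in limma in any alternative (5 to 19 at an unadjusted p under 0.05). For sex, interaction and age, 0 galectin values passed in any alternative (at most 1, 2 and 3 at an unadjusted p under 0.05). On the Gusb probe set that separated the groups, the difference of -1.40 was -1.59 to -1.20 without 1 animal. It was -1.16 without normals 1 and 3 and -1.29 without mutants 1 and 3 (two-sided exact permutation p = 0.0667, the smallest that 2 against 4 arrays allow). These values do not cover the other Gusb probe set, which differed by 0.16. No paired analysis was possible because the labels give no replicate numbers or litters. Animals of the same age were fitted as a random block in its place (consensus correlation -0.239). The differences were then 2.44 for Lgals3, 1.75 for Lgals1, 1.14 for Lgals3bp, 0.71 for Lgals9 and 0.18 for Lgals8. In that fit 10 genes were higher and 1 lower past the threshold.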
